A study of Mus musculus with 23 samples.

Results

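Mouse 2-cell embryos labelled Eif4enif1+/- (het 2-cell, 3 libraries) were compared with 3 libraries of 1-cell embryos of the same genotype label (het 1-cell), so that 6 of the 23 libraries of the study, chosen by their sample labels, entered the comparison. The 2-cell embryos had been cultured in vitro for 24 hours and the 1-cell embryos had no treatment, so stage and culture cannot be told apart. Another 3 groups of 3 libraries each are set beside them where a result needs it: het embryos that remained at the 1-cell stage after 24 hours of culture (het arrested), WT 2-cell embryos after the same culture, and untreated WT 1-cell embryos. Libraries were made from poly(A) RNA of lysed embryos by full-length amplification. Whether embryo or mother carries the genotype is not stated in the labels, nor what the Eif4enif1 allele is, how many embryos made a library, or whether replicates came from separate females. P-values therefore measure the spread between these libraries, which may be technical in part.

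A mouse zygote starts life on RNA that the oocyte stored. Its own genome is switched on in a minor wave in the zygote and a major wave at the 2-cell stage, while most of the stored RNA is degraded. The 4E-T protein, made from Eif4enif1, attaches to eIF4E, the factor that holds the mRNA cap. It keeps those mRNAs from being translated, links them to storage and decay factors, and is abundant in oocytes.

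Counts of 2 het 1-cell libraries had a ceiling. Among genes with at least 1000 bp of exon, the highest count per kb was 2099 in library 1 and 2218 in library 3, against 149659 in het 1-cell library 2 and 126511 to 1175063 in the other libraries. The 100 most abundant genes took 6.34% and 5.53% of all counts in libraries 1 and 3, against 38.05% in library 2. Totals were 19436210, 31894887 and 22443594 counts in the het 2-cell libraries and 5597333, 13434637 and 7336764 in the het 1-cell libraries. Rank correlations across genes between the 3 het 1-cell libraries were 0.952 to 0.955. Het 2-cell library 1 stood apart from the other het 2-cell libraries (0.857 and 0.851) and lay closer to the het 1-cell libraries (0.633 to 0.641) than they did (0.558 to 0.585). With het arrested libraries 1, 2 and 3 it gave 0.656, 0.809 and 0.863, where het 2-cell libraries 2 and 3 gave 0.563 to 0.760. With the WT 2-cell libraries it gave 0.848 to 0.883. Among the WT 2-cell libraries, library 3 lay closest to the WT 1-cell libraries (0.585 to 0.592, against 0.542 to 0.552 for libraries 1 and 2).

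**Figure D1:**
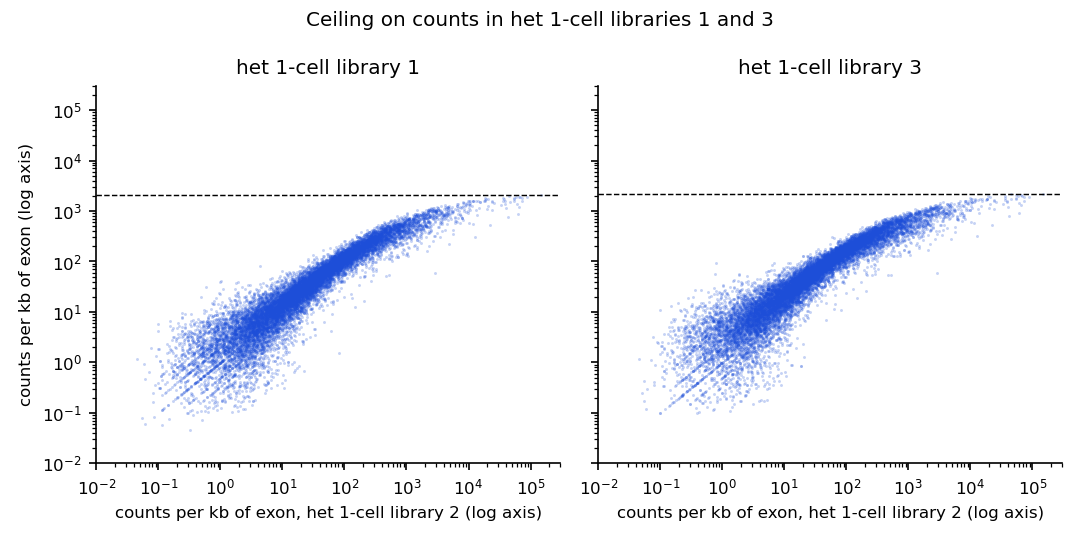
Counts per kb of exon of every gene with at least 1000 bp of exon in het 1-cell library 1 (left) and 3 (right), against het 1-cell library 2, on log axes, with the highest value of each as a dashed line. Points level off at 2099 and 2218 counts per kb, while library 2 reaches 149659.

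Each gene was therefore tested with all 6 libraries and again without het 1-cell libraries 1 and 3, called the reduced fit here. Both were edgeR quasi-likelihood F tests in a model of all embryo groups, with Benjamini-Hochberg adjustment over all genes tested and a threshold of 0.05. The reduced fit has a single het 1-cell library, whose spread is taken to be like that of the other groups. Values are in CPM, a gene's share of the TMM-scaled size of its library, and are given per library in replicate order. No spike-in is named, so the amount of mRNA per embryo is not measured, and fewer cells of a type cannot be told apart from less RNA per cell. Log2 changes are het 2-cell over het 1-cell.

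Eif4enif1 itself (chr11:3202392-3244588, GRCm38) had 54.9, 38.2 and 42.9 CPM in the het 2-cell libraries, against 72.1, 69.9 and 69.2 CPM in the het 1-cell libraries. All 3 het 2-cell values lay below all 3 het 1-cell values, but the difference did not pass the test (log2 -0.63, SE 0.41, adjusted p = 0.229, and -0.77, SE 0.66, adjusted p = 0.49 in the reduced fit). WT embryos had 68.7 ± 11.6 CPM at 2 cells and 153 ± 22.4 CPM at 1 cell (SD, n = 3 each), and the het and WT changes did not differ beyond their spread (difference of log2 changes 0.52, SE 0.58, unadjusted p = 0.381).

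Most of the stage markers given here followed the labels. The oocyte markers Zp3, Bmp15, Zar1 and Btg4 were also listed, and their values are not given here. Of the 2-cell markers, Zscan4d, a telomere-associated SCAN-domain gene, had 421, 178 and 73.3 CPM in the het 2-cell libraries, against 5.66, 5.64 and 7.73 CPM in the het 1-cell libraries. Tdpoz1, a 2-cell BTB-domain gene, had 86.9, 87.6 and 47.1 CPM in the het 2-cell libraries, against 0.707, 0.985 and 0.380 CPM in the het 1-cell libraries, and Usp17lc, a deubiquitinase of a multicopy family, had 123, 78.9 and 29.7 CPM in the het 2-cell libraries, against 0.973, 1.08 and 0.254 CPM in the het 1-cell libraries. Arg2, an arginase, had 321, 321 and 187 CPM in the het 2-cell libraries, against 52.3, 92.3 and 72.5 CPM in the het 1-cell libraries, groups that did not overlap but a difference that did not pass (adjusted p = 0.0731, and 0.487 in the reduced fit). Of the oocyte markers, Mos, the kinase that holds eggs in meiotic metaphase, had 2.46, 1.97 and 2.43 CPM in the het 2-cell libraries, against 115, 129.99 and 78.7 CPM in the het 1-cell libraries, and Nlrp5, a subunit of the subcortical maternal complex, had 66.3, 31.3 and 31.6 CPM in the het 2-cell libraries, against 251, 341 and 236 CPM in the het 1-cell libraries. Gdf9, a growth factor of the oocyte, had 378, 296 and 159.6 CPM in the het 2-cell libraries, against 264, 1912 and 192 CPM in the het 1-cell libraries. Only het 1-cell library 2, the one with no ceiling, stood above all het 2-cell libraries, and WT 1-cell embryos had 2705 ± 925 CPM.

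With all 6 libraries 8693 of 23656 genes tested differed (36.7%), 5398 higher (22.8%) and 3295 lower (13.9%) in het 2-cell embryos. In the reduced fit 2017 of 28070 differed (7.19%), 855 higher (3.05%) and 1162 lower (4.14%). Both fits called 853 genes higher (3.61%) and 1084 lower (4.58%). Of the 8689 genes called with all libraries and tested in both fits, 8681 kept their sign in the reduced fit. Lower calls numbered 2014 to 2174 without het 1-cell library 1, het 1-cell library 3, het 2-cell library 2 or het 2-cell library 3. Libraries did not overlap for 7625 genes that were higher (32.2%) and 6154 that were lower (26.0%) in het 2-cell embryos. Het 2-cell library 1 was the highest of the 3 het 2-cell libraries in 2113 of the 3295 genes called lower, and the lowest in 3181 of the 5398 called higher. An uneven split was also seen in WT embryos. There WT 2-cell library 3 was the highest of its group in 2270 of the 4246 genes called lower. Percentages after the counts of a gene list are shares of its tested members called higher and lower with all libraries, set against 22.8% and 13.9% over all genes. In both fits the shares over all genes were 3.61% and 4.58%.

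Transcripts known from the 2-cell stage rose together. Of 38 members of a list of 2-cell-stage transcripts that passed the expression filter, 33 rose and none fell with all libraries, beside 22.8% of all genes that rose, and 13 rose in both fits. Their median log2 change was 6.56, and 6.71 in the reduced fit, against 0.36 and 0.60 over the 23656 genes tested with all libraries. Over the 28070 genes tested in the reduced fit the median was 0.82. With the 9 members of the list at 0 counts in a group set at their bound, a floor of 3 counts over the group, the list median was 6.39. Tcstv1, Zfp51, Sp110, Arg2 and a Dux copy were the 5 that did not pass. Most of these genes belong to multicopy families, so reads shared between copies make their counts uncertain.

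Zfp352, a zinc-finger gene of the 2-cell programme, had 270.3, 193 and 85.7 CPM in the het 2-cell libraries, against 0 counts in each het 1-cell library. Zfp352 was at least 2350-fold higher (adjusted p = 0.000321, and 0.0131 in the reduced fit). Its promoter is shown because it repeats the letters TAATCC, the motif bound by OTX- and OBOX-type homeodomain proteins. Obox6 and Crxos, of the Obox locus, were at 0 counts in het 1-cell embryos and rose. Obox1, Obox2 and Obox7 had 11076, 9840 and 677 CPM in het 1-cell library 2, where Zfp352 had 0 counts. Whether any of them acts on Zfp352 was not tested. The promoter stretch is chr4:90218570-90218869 on the + strand of GRCm38.p6 (RefSeq), from 250 bases before to 50 bases after the start of the gene, with each TAATCC in capitals.
Zfp352: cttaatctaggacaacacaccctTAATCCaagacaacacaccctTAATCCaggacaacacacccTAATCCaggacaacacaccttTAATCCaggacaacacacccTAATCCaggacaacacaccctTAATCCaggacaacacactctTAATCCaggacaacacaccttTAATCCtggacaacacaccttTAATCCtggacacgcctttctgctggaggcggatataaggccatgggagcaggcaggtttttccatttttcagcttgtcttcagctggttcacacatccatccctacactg
TAATCC occurs 9 times, always on the forward strand, at a spacing of 20 to 21 bases. The bases between the matches repeat too, with few changes. The 9 matches therefore lie in copies of the same repeated stretch and are not separate occurrences of the motif. Searched as TAATCC or its reverse complement GGATTA, this was the single promoter of 32851 in the RefSeq table with 5 or more matches, and 8 promoters (0.0244%) had 3 or more. At least 1 match stood in 2320 promoters (7.06%), and in 10 of the 93 promoters (10.8%) of the 80 matched genes at 0 counts in het 1-cell embryos and at least 10 CPM in every het 2-cell library. A match is a string of letters and does not show binding.

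Among other 2-cell-stage transcripts, Spz1, a bHLH-zip gene, had 13.02, 16.3 and 23.6 CPM in the het 2-cell libraries, against 0 counts in each het 1-cell library. Spz1 was at least 223-fold higher (adjusted p = 0.00021, and 0.0109 in the reduced fit). Rfpl4b, a RING-finger-like gene, had 153, 214 and 102 CPM in the het 2-cell libraries, against 0, 0 and 0.380 CPM in the het 1-cell libraries. Rfpl4b gave a log2 change of 9.99 (SE 1.21, adjusted p = 0.000219), and an adjusted p of 0.00605 in the reduced fit. Gm2016, Gm5662 and Gm8300, predicted genes on chromosome 12, had 445 to 933 CPM, 578 to 1191 CPM and 129.6 to 345 CPM in the het 2-cell libraries, against at most 0.190, 0.442 and 0.354 CPM in the het 1-cell libraries. All 3 passed in both fits. The 6 Zscan4 copies rose with all libraries (log2 4.70 to 5.86) but had adjusted p of 0.0895 (Zscan4a) to 0.17 (Zscan4b) in the reduced fit. They were higher in het 2-cell library 1 than in libraries 2 and 3, as in Zscan4f with 1111, 403 and 172 CPM in the het 2-cell libraries, against 8.84, 9.32 and 10.8 CPM in the het 1-cell libraries. Tcstv1, a 2-cell-specific gene by its name, had 118, 61.6 and 44.01 CPM in the het 2-cell libraries, against 82.04, 206 and 68.5 CPM in the het 1-cell libraries. The groups overlapped and Tcstv1 did not pass (adjusted p = 0.401).

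The Obox genes, homeobox genes of the egg and early embryo, split by timing. Obox6 had 330.2, 968 and 1419 CPM in the het 2-cell libraries, against 0 counts in each het 1-cell library. Obox6 was at least 11600-fold higher (adjusted p = 0.000196, and 0.00907 in the reduced fit). Crxos, a homeobox gene at the same locus on chromosome 7, had 227, 743 and 1005 CPM in the het 2-cell libraries, against 0 counts in each het 1-cell library. Crxos was at least 8440-fold higher (adjusted p = 0.000454, and 0.018 in the reduced fit). Obox8 had 130.1, 642 and 852 CPM in the het 2-cell libraries, against 0, 0.179 and 1.14 CPM in the het 1-cell libraries. Obox8 gave a log2 change of 10.14 (SE 1.68, adjusted p = 0.000908), and 11.39 (SE 2.73, adjusted p = 0.0285) in the reduced fit. Obox3 had 723, 932 and 618 CPM in the het 2-cell libraries, against 14.2, 134 and 10.97 CPM in the het 1-cell libraries (log2 3.84, adjusted p = 0.00501, but 2.36 and 0.111 in the reduced fit).
Obox1, Obox2, Obox5 and Obox7, which the oocyte stores, had negative log2 changes, and Obox5 did not pass with all libraries (adjusted p = 0.0576). Obox2 had 205, 102 and 72.7 CPM in the het 2-cell libraries, against 271, 9840.2 and 212 CPM in the het 1-cell libraries. Obox2 gave a log2 change of -4.76 (SE 1.30, adjusted p = 0.0112), and -6.43 (SE 0.83, adjusted p = 0.00302) in the reduced fit. Obox7 had 32.5, 14.3 and 18.3 CPM in the het 2-cell libraries, against 147, 677 and 123 CPM in the het 1-cell libraries. Obox7 gave a log2 change of -3.86 (SE 0.73, adjusted p = 0.00142), and -5.11 (SE 0.72, adjusted p = 0.00384) in the reduced fit. Obox1 had 287, 101 and 109 CPM in the het 2-cell libraries, against 313, 11076 and 245 CPM in the het 1-cell libraries. Obox1 gave a log2 change of -4.55 (SE 1.31, adjusted p = 0.0146), and -6.21 (SE 0.88, adjusted p = 0.00384) in the reduced fit. Its groups overlapped. Without het 1-cell library 2, the one library with no ceiling, the log2 changes of Obox1 and Obox2 were -0.74 and -0.92 and no longer passed. Obox1 also did not pass without het 2-cell library 2 or 3 (adjusted p = 0.0601 and 0.0604), nor Obox2 without het 2-cell library 3 (adjusted p = 0.0507). Of the 8 genes 4 rose and 3 fell with all libraries (50% and 37.5%), and 1 fell without het 1-cell library 2 or het 2-cell library 3. Over the 8 genes the median log2 change was 0.41 with all libraries and -1.15 in the reduced fit, and it also changed sign without het 1-cell library 1 (-0.04), het 1-cell library 3 (-0.06) or het 2-cell library 1 (-0.01).

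Of 34 Dppa, Dux and pluripotency regulators, 16 rose and 1 fell with all libraries (47.1% and 2.94%, median log2 1.64), and in both fits 2 rose. Dppa4, a SAP-domain activator of the 2-cell programme, had 205, 530.4 and 632 CPM in the het 2-cell libraries, against 0.884, 1.16 and 0.380 CPM in the het 1-cell libraries. Dppa4 gave a log2 change of 9.15 (SE 1.20, adjusted p = 0.000217), and 8.48 (SE 1.93, adjusted p = 0.0192) in the reduced fit. Gabpa, an ETS transcription factor, had 303, 460.4 and 604 CPM in the het 2-cell libraries, against 1.06, 1.25 and 0.634 CPM in the het 1-cell libraries. Gabpa gave a log2 change of 8.86 (SE 0.86, adjusted p = 9.93e-05), and 8.37 (SE 1.39, adjusted p = 0.00522) in the reduced fit. These were the 2 that held in the reduced fit. Dppa2, which activates Dux with Dppa4, had 173, 452 and 798 CPM in the het 2-cell libraries, against 83.3, 108 and 82.5 CPM in the het 1-cell libraries and passed with all libraries alone (adjusted p = 0.0101, and 0.221). Klf5, a Krüppel-like factor of the early embryo, had 30.7, 18.1 and 19 CPM in the het 2-cell libraries, against 0 counts in each het 1-cell library. Klf5 was at least 284-fold higher (adjusted p = 0.00136, and 0.0569 in the reduced fit). The chromatin factor Ctcf was the member that fell with all libraries, with 51.4, 43.6 and 49.8 CPM in the het 2-cell libraries, against 106, 143 and 121 CPM in the het 1-cell libraries (adjusted p = 0.00832, and 0.0689 in the reduced fit). Pou5f1 and Nanog, regulators of the later inner cell mass, had 9.09, 3.04 and 2.27 CPM and 3.19, 1.03 and 0.505 CPM in het 2-cell embryos, against 13.5, 10.03 and 16.4 CPM and 0.265, 0.448 and 0.254 CPM in het 1-cell embryos, and neither passed.

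A set of 143 genes had 0 counts in all 3 het 1-cell libraries and at least 10 CPM in every het 2-cell library, and 98 of them had 0 counts in all 3 WT 1-cell libraries too. Trim43a, a RING-finger gene, had 474, 845 and 968 CPM in the het 2-cell libraries, against 0 counts in each het 1-cell library. Trim43a was at least 9770-fold higher (adjusted p = 0.000194, and 0.00862 in the reduced fit). Pdxk, pyridoxal kinase, had 181, 697 and 647 CPM in the het 2-cell libraries, against 0 counts in each het 1-cell library. Pdxk was at least 6650-fold higher (adjusted p = 0.00133, and 0.0443 in the reduced fit). Rab20, a small GTPase of endosomes and phagosomes, had 147, 323 and 478 CPM in the het 2-cell libraries, against 0 counts in each het 1-cell library. Rab20 was at least 4020-fold higher (adjusted p = 0.00133, and 0.045 in the reduced fit). Timd2, a ferritin receptor, had 291, 1286 and 1856 CPM in the het 2-cell libraries, against 0, 0.0896 and 0 CPM in the het 1-cell libraries. Timd2 gave a ratio of 44000, 95% counting interval 7890 to 1740000 (adjusted p = 0.000172, and 0.0105 in the reduced fit), on 1 count in the het 1-cell libraries. For each of these genes the lowest het 2-cell library was library 1.
Cited1, a transcriptional co-activator, had 121, 293 and 170.3 CPM in the het 2-cell libraries, against 0 counts in each het 1-cell library. Cited1 was at least 2580-fold higher (adjusted p = 0.000375, and 0.0201 in the reduced fit). Ctsa, a lysosomal protective protein, had 69.1, 170.1 and 165 CPM in the het 2-cell libraries, against 0 counts in each het 1-cell library. Ctsa was at least 1750-fold higher (adjusted p = 0.00082, and 0.0391 in the reduced fit). Pramel7, a leucine-rich repeat gene, had 53.8, 165 and 198 CPM in the het 2-cell libraries, against 0 counts in each het 1-cell library. Pramel7 was at least 1790-fold higher (adjusted p = 0.000243, and 0.0123 in the reduced fit). At the other end, 35 genes had at least 10 CPM in every het 1-cell library and under 1 CPM in every het 2-cell library, 17 of them also under 1 CPM in every WT 2-cell library.

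**Figure D2:**
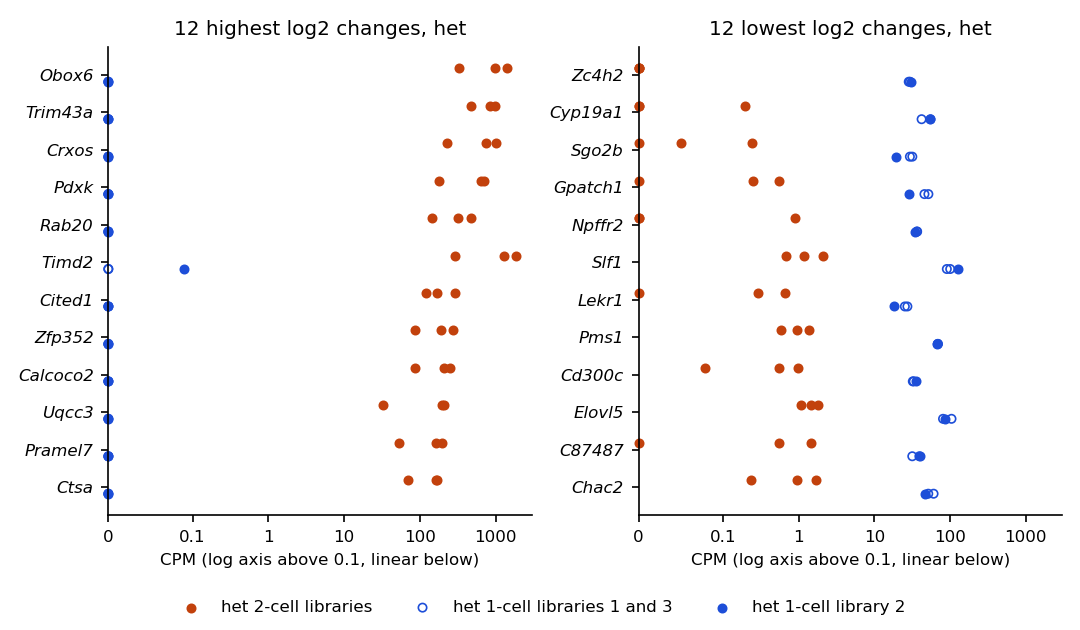
CPM of the 12 genes with the highest (left) and the 12 with the lowest (right) fitted log2 changes in each het 2-cell and het 1-cell library, with an axis that is linear below 0.1 CPM and logarithmic above. The 3 het 2-cell libraries sit above 30 CPM for every gene on the left, where 11 genes are at 0 in all het 1-cell libraries, and at or below 2.07 CPM on the right, where the het 1-cell libraries lie between 17.9 and 128 CPM.

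Genes of the ribosome rose together. Of 86 cytosolic ribosomal protein genes 82 rose and none fell with all libraries, and 32 rose in both fits, with a median log2 change of 4.27 and 4.08. Their summed level was 8237, 25105 and 32166 CPM in the het 2-cell libraries, against 1426, 2703 and 1314 CPM in the het 1-cell libraries. Library 1 was the lowest of the het 2-cell libraries, and still above every het 1-cell library. Leaving it out together with het 1-cell libraries 1 and 3 left 52 higher. Rpsa, the laminin-receptor-like protein of the small subunit, had 43.3, 125 and 122 CPM in the het 2-cell libraries, against 1.5, 1.34 and 0.761 CPM in the het 1-cell libraries. Rpsa gave a log2 change of 6.33 (SE 0.64, adjusted p = 0.000103), and 6.03 (SE 1.10, adjusted p = 0.00745) in the reduced fit. Rps23, which lines the decoding centre, had 71.7, 244 and 416 CPM in the het 2-cell libraries, against 4.16, 3.14 and 5.39 CPM in the het 1-cell libraries. Rps23 gave a log2 change of 5.84 (SE 0.70, adjusted p = 0.000183), and 6.15 (SE 1.22, adjusted p = 0.0106) in the reduced fit. Rpl30, of the large subunit, had 66.7, 147 and 243 CPM in the het 2-cell libraries, against 3.36, 5.46 and 6.28 CPM in the het 1-cell libraries. Rpl30 gave a log2 change of 4.92 (SE 0.67, adjusted p = 0.000272), and 4.67 (SE 1.12, adjusted p = 0.0236) in the reduced fit. Ribosomal protein genes have many processed pseudogenes, so their counts depend on how shared reads were assigned, a step the labels do not describe.

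Of 62 nucleolar and ribosome biogenesis genes 32 rose and 1 fell (51.6% and 1.61%), and in both fits 9 rose and none fell (median log2 1.46, and 1.64 in the reduced fit). Nop16, a nucleolar protein of large-subunit assembly, had 277, 313 and 616 CPM in the het 2-cell libraries, against 0, 0 and 0.507 CPM in the het 1-cell libraries. Nop16 gave a log2 change of 10.97 (SE 1.44, adjusted p = 0.000217), and an adjusted p of 0.00789 in the reduced fit. Polr1c, a subunit shared by RNA polymerases I and III, had 203, 283 and 363 CPM in the het 2-cell libraries, against 10.2, 3.58 and 11.9 CPM in the het 1-cell libraries. Polr1c gave a log2 change of 5.04 (SE 0.82, adjusted p = 0.000606), and 6.17 (SE 1.37, adjusted p = 0.0179) in the reduced fit. Emg1, an rRNA methyltransferase, had 229, 365 and 530.1 CPM in the het 2-cell libraries, against 22.8, 20.3 and 25.99 CPM in the het 1-cell libraries. Emg1 gave a log2 change of 4.02 (SE 0.63, adjusted p = 0.000491), and 4.07 (SE 1.03, adjusted p = 0.0305) in the reduced fit.
Translation initiation and elongation factors gave 21 higher and none lower of 40 (52.5% and 0%), and 3 higher in both fits (median log2 1.40, and 1.02). Without het 1-cell library 1, or without het 2-cell library 3, 13 were higher. The 3 were Eif3h, of the scanning complex, at 74.3, 175 and 195 CPM in the het 2-cell libraries, against 14.1, 16.4 and 20.1 CPM in the het 1-cell libraries, Eif1a, of the same complex, at 139, 115 and 158 CPM in the het 2-cell libraries, against 1.5, 0.269 and 1.84 CPM in the het 1-cell libraries, and Eif2b5, of the exchange factor eIF2B, at 7.91, 13.2 and 10.6 CPM in the het 2-cell libraries, against 0.0884, 0 and 0.507 CPM in the het 1-cell libraries.
Of 57 RNA polymerase II and spliceosome genes 19 rose and 6 fell (33.3% and 10.5%), 7 and 2 in both fits. The share that fell was below that of all genes, and 2 fell without het 1-cell library 2 and 3 without het 1-cell library 1, het 2-cell library 2 or het 2-cell library 3. Polr2h had 149, 286 and 408 CPM in the het 2-cell libraries, against 8.84, 6.002 and 9.38 CPM in the het 1-cell libraries. Polr2h gave a log2 change of 5.12 (SE 0.72, adjusted p = 0.000285), and 5.42 (SE 1.23, adjusted p = 0.0189) in the reduced fit. Snrpc, of the U1 particle that reads the 5′ splice site, had 264, 405 and 519.7 CPM in the het 2-cell libraries, against 8.31, 8.24 and 8.12 CPM in the het 1-cell libraries. Snrpc gave a log2 change of 5.59 (SE 0.79, adjusted p = 0.000289), and 5.45 (SE 1.32, adjusted p = 0.0253) in the reduced fit.

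Genes of the eIF4E family and its partners changed in both directions. Eif4e2, the 4EHP protein that binds caps without recruiting eIF4G, had 74.5, 239 and 205 CPM in the het 2-cell libraries, against 10.5, 9.94 and 18.8 CPM in the het 1-cell libraries. Eif4e2 gave a log2 change of 3.72 (SE 0.63, adjusted p = 0.000773), and 3.99 (SE 1.05, adjusted p = 0.036) in the reduced fit. Eif4e3, a divergent eIF4E-like protein, had 66.4, 24.7 and 33.7 CPM in the het 2-cell libraries, against 195, 406 and 152 CPM in the het 1-cell libraries. Eif4e3 gave a log2 change of -2.59 (SE 0.51, adjusted p = 0.00184), and -3.44 (SE 0.61, adjusted p = 0.00626) in the reduced fit. These 2 held in both fits. Eif4e itself had 766, 1752 and 1891 CPM in the het 2-cell libraries, against 205, 598 and 175 CPM in the het 1-cell libraries and rose with all libraries (log2 2.17, adjusted p = 0.01), but not in the reduced fit (log2 1.17, adjusted p = 0.325): het 1-cell library 2 was the highest of its group.
Eif4ebp1, a 4E-binding repressor, had 123, 94.97 and 147 CPM in the het 2-cell libraries, against 6.98, 5.20 and 3.93 CPM in the het 1-cell libraries (adjusted p = 0.00153, and 0.0741). Eif4e1b, the oocyte form that 4E-T binds, had 8.99, 8.06 and 3.23 CPM in the het 2-cell libraries, against 28.1, 23.8 and 32.5 CPM in the het 1-cell libraries and did not pass (adjusted p = 0.0541, and 0.284). Of the eIF4G scaffolds, Eif4g1 and Eif4g3 fell and Eif4g2 rose with all libraries, and none did in the reduced fit (adjusted p = 0.284, 0.062 and 0.232). The list of 11 holds Eif4ebp1 and the eIF4G scaffolds besides the eIF4E family and 4E-T, so its shares are not those of proteins bound by 4E-T. In all, 4 of 11 members rose and 3 fell (36.4% and 27.3%), and the median changed sign without het 2-cell library 3 (0.83 with it, -0.30 without it).

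Mitochondrially encoded transcripts moved with the ceiling. Of 13 mitochondrially encoded mRNAs 11 rose with all libraries, with a median log2 change of 3.66, and 5 rose in both fits, with 2.21 in the reduced fit. Mitochondrially encoded counts were 14.49%, 19.77% and 13.55% of the het 2-cell libraries, against 0.44%, 3.68% and 0.34% of the het 1-cell libraries, where 0.44% and 0.34% are the libraries with the ceiling. WT embryos had 9.94%, 9.23% and 10.23% at 2 cells and 2.58%, 2.39% and 2.35% at 1 cell. mt-Co2, a subunit of cytochrome c oxidase, had 5201, 13129 and 7713 CPM in the het 2-cell libraries, against 93.1, 1111 and 70.5 CPM in the het 1-cell libraries. mt-Co2 gave a log2 change of 4.35 (SE 0.99, adjusted p = 0.00406), and 2.83 (SE 0.67, adjusted p = 0.0223) in the reduced fit. mt-Nd4l, of complex I, had 1288, 2229 and 1181 CPM in the het 2-cell libraries, against 44.6, 248 and 34.9 CPM in the het 1-cell libraries. mt-Nd4l gave a log2 change of 3.84 (SE 0.70, adjusted p = 0.00119), and 2.52 (SE 0.63, adjusted p = 0.0296) in the reduced fit. Each of the 13 was lowest in het 1-cell libraries 1 and 3. Fitted with the het groups alone, 4 of the 13 passed.

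Of 90 nuclear-encoded subunits and assembly factors of oxidative phosphorylation (OXPHOS), 47 rose and 4 fell with all libraries (52.2% and 4.44%), and 6 rose and 3 fell in both fits (median log2 1.77, and 1.25). Cox7b, of complex IV, had 103, 139.8 and 165 CPM in the het 2-cell libraries, against 6.98, 4.75 and 8.69 CPM in the het 1-cell libraries. Cox7b gave a log2 change of 4.32 (SE 0.52, adjusted p = 0.000183), and 4.70 (SE 0.88, adjusted p = 0.00837) in the reduced fit. Atp5j, of ATP synthase, had 50.9, 178 and 158 CPM in the het 2-cell libraries, against 8.05, 6.09 and 6.53 CPM in the het 1-cell libraries. Atp5j gave a log2 change of 4.23 (SE 0.57, adjusted p = 0.00026), and 4.27 (SE 0.99, adjusted p = 0.0211) in the reduced fit. Uqcc3, an assembly factor of complex III, had 32.9, 207 and 198 CPM in the het 2-cell libraries, against 0 counts in each het 1-cell library. Uqcc3 was at least 1920-fold higher (adjusted p = 0.000752, and 0.0369 in the reduced fit). Sdha, the flavoprotein of complex II and a TCA enzyme, went the other way, with 7.13, 0.711 and 3.08 CPM in the het 2-cell libraries, against 65.2, 55.4 and 67.8 CPM in the het 1-cell libraries. Sdha gave a log2 change of -4.11 (SE 0.66, adjusted p = 0.000555), and -4.08 (SE 0.83, adjusted p = 0.0119) in the reduced fit.
Of 24 genes of the TCA cycle 4 rose and 8 fell (16.7% and 33.3%), 1 and 3 in both fits. The 8 were 2 without het 2-cell library 3 and 4 without het 1-cell library 1, het 1-cell library 2 or het 2-cell library 2, and the 4 that rose were 2 without het 1-cell library 1. Idh1, the cytosolic isocitrate dehydrogenase, had 5.50, 0.632 and 1.01 CPM in the het 2-cell libraries, against 79.8, 61.01 and 72.4 CPM in the het 1-cell libraries. Idh1 gave a log2 change of -4.90 (SE 0.85, adjusted p = 0.000883), and -4.84 (SE 1.01, adjusted p = 0.0134) in the reduced fit. Idh3g, a subunit of the mitochondrial NAD-dependent enzyme, had 100.01, 160.1 and 132 CPM in the het 2-cell libraries, against 4.95, 1.70 and 5.83 CPM in the het 1-cell libraries. Idh3g gave a log2 change of 4.96 (SE 0.86, adjusted p = 0.000867), and 6.12 (SE 1.48, adjusted p = 0.0249) in the reduced fit. Mdh1 had log2 changes of -1.53 with all libraries and -2.19 in the reduced fit. It passed with all libraries, but not without het 1-cell library 2 (-1.18), het 2-cell library 2 (-1.39) or het 2-cell library 3 (-1.26). Like Idh1, Mdh1 is a cytosolic form, so the list is not limited to enzymes of the mitochondrial cycle. Of 34 glycolysis, pyruvate and lactate genes 8 rose and 4 fell (23.5% and 11.8%), shares near those of all genes, and 1 and 2 did in both fits. The 4 were 2 without het 1-cell library 1 or het 2-cell library 3. At the entry to the TCA cycle, Dlat, of the pyruvate dehydrogenase complex, had 17.7, 7.66 and 7.23 CPM in the het 2-cell libraries, against 89.5, 107 and 86.4 CPM in the het 1-cell libraries. Dlat gave a log2 change of -3.12 (SE 0.51, adjusted p = 0.000623), and -3.45 (SE 0.70, adjusted p = 0.0115) in the reduced fit. Pdp1, the phosphatase that activates it, had 9.34, 3.04 and 6.01 CPM in the het 2-cell libraries, against 92.1, 55.4 and 82.6 CPM in the het 1-cell libraries. Pdp1 gave a log2 change of -3.65 (SE 0.60, adjusted p = 0.000682), and -3.32 (SE 0.75, adjusted p = 0.0188) in the reduced fit.
Mitochondrial ribosomal proteins counted 31 higher and 6 lower of 78 (39.7% and 7.69%), 2 and 1 in both fits, and Mrps7 had 194, 227 and 215 CPM in the het 2-cell libraries, against 24.7, 21.7 and 24.6 CPM in the het 1-cell libraries. Mrps7 gave a log2 change of 3.17 (SE 0.40, adjusted p = 0.000189), and 3.15 (SE 0.69, adjusted p = 0.0163) in the reduced fit. Of 27 fusion, fission and transport genes 4 rose and 6 fell (14.8% and 22.2%), 1 and 2 in both fits. Dnm1l, the fission GTPase DRP1, had 56.6, 21.5 and 21.6 CPM in the het 2-cell libraries, against 144, 187 and 137 CPM in the het 1-cell libraries. Dnm1l gave a log2 change of -2.23 (SE 0.45, adjusted p = 0.00199), and -2.65 (SE 0.61, adjusted p = 0.0203) in the reduced fit. Oma1, the protease that cuts the fusion protein OPA1, had 2.01, 0.711 and 2.22 CPM in the het 2-cell libraries, against 62.4, 60.6 and 67.1 CPM in the het 1-cell libraries. Oma1 gave a log2 change of -5.26 (SE 1.06, adjusted p = 0.00205), and -5.34 (SE 1.31, adjusted p = 0.0262) in the reduced fit.

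Of 35 mitophagy and autophagy genes 11 rose and 6 fell (31.4% and 17.1%), 6 and 2 in both fits. The 6 that rose in both fits included 4 genes of the LC3 and GABARAP family, which are lipidated onto the autophagosome. Map1lc3b had 1414, 5204 and 6509.6 CPM in the het 2-cell libraries, against 92.1, 103 and 76.6 CPM in the het 1-cell libraries. Map1lc3b gave a log2 change of 5.60 (SE 0.83, adjusted p = 0.000365), and 5.29 (SE 1.21, adjusted p = 0.0201) in the reduced fit. Gabarap had 91.9, 209 and 208 CPM in the het 2-cell libraries, against 1.68, 0.627 and 3.93 CPM in the het 1-cell libraries. Gabarap gave a log2 change of 6.32 (SE 0.96, adjusted p = 0.000407), and 7.93 (SE 1.63, adjusted p = 0.0126) in the reduced fit. The others were Map1lc3a and Gabarapl2 (log2 4.61 and 3.88), Lamp2, a lysosomal membrane protein (3.78), and Calcoco2. Calcoco2, the receptor NDP52, had 85.3, 206 and 253 CPM in the het 2-cell libraries, against 0 counts in each het 1-cell library. Calcoco2 was at least 2330-fold higher (adjusted p = 0.000172, and 0.00522 in the reduced fit). Sqstm1, Tax1bp1, Atg5, Atg16l1, Lamp1 and Usp30 were the 6 that fell with all libraries. They did not hold as a group: 3 genes of the list fell with RLE scaling, 1 with no expression filter, and 1 to 3 without any 1 of the 6 libraries.
Of 36 proteasome genes 17 rose and 4 fell (47.2% and 11.1%), 2 and 2 in both fits. The 17 were 11 without het 1-cell library 1 or het 2-cell library 2, and 10 without het 2-cell library 3. Psma3, of the core ring, had 98.9, 314 and 354 CPM in the het 2-cell libraries, against 30.3, 21.5 and 27.01 CPM in the het 1-cell libraries. Psma3 gave a log2 change of 3.28 (SE 0.46, adjusted p = 0.000289), and 3.44 (SE 0.80, adjusted p = 0.0213) in the reduced fit. Psmd1, of the regulatory particle, had 29.6, 43.8 and 51.03 CPM in the het 2-cell libraries, against 138, 165 and 129.8 CPM in the het 1-cell libraries. Psmd1 gave a log2 change of -1.80 (SE 0.33, adjusted p = 0.0012), and -2.13 (SE 0.49, adjusted p = 0.0205) in the reduced fit. Psma7 fell in both fits, but its log2 change was -0.40 without het 1-cell library 2, which alone had over 1000 CPM. Nor did Psma7 pass without any 1 of the het 2-cell libraries (adjusted p = 0.0949 to 0.117).

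Among 44 chaperones and stress genes 17 rose and 3 fell (38.6% and 6.82%), 1 and 1 in both fits. Gadd45b, a stress-inducible growth-arrest gene, had 36.6, 43.5 and 68.3 CPM in the het 2-cell libraries, against 0 counts in each het 1-cell library. Gadd45b was at least 623-fold higher (adjusted p = 0.000439, and 0.0244 in the reduced fit). Ern1, the unfolded-protein sensor IRE1, had 20.6, 27.7 and 20.9 CPM in the het 2-cell libraries, against 189, 179 and 164 CPM in the het 1-cell libraries. Ern1 gave a log2 change of -2.94 (SE 0.40, adjusted p = 0.000271), and -3.09 (SE 0.56, adjusted p = 0.00733) in the reduced fit.
Of 29 p53 targets and apoptosis genes 12 rose and 5 fell (41.4% and 17.2%), 4 and 3 in both fits. The 5 were 2 without het 2-cell library 2 and 3 without any 1 of the het 1-cell libraries or het 2-cell library 3. Cdkn1a, the inhibitor p21, had 90.7, 143 and 126 CPM in the het 2-cell libraries, against 7.34, 3.05 and 7.42 CPM in the het 1-cell libraries. Cdkn1a gave a log2 change of 4.33 (SE 0.81, adjusted p = 0.0013), and 5.16 (SE 1.38, adjusted p = 0.0377) in the reduced fit. Mcl1, an anti-apoptotic BCL2 protein, had 53.2, 63.6 and 69.98 CPM in the het 2-cell libraries, against 0.354, 0.627 and 1.58 CPM in the het 1-cell libraries. Mcl1 gave a log2 change of 6.14 (SE 0.70, adjusted p = 0.000172), and 6.48 (SE 1.14, adjusted p = 0.00625) in the reduced fit. Casp8, the initiator caspase, fell, with 2.998, 0 and 2.88 CPM in the het 2-cell libraries, against 83.2, 145 and 70.7 CPM in the het 1-cell libraries. Casp8 gave a log2 change of -5.67 (SE 1.29, adjusted p = 0.0042), and -6.35 (SE 1.54, adjusted p = 0.025) in the reduced fit. Apaf1, the apoptosome scaffold, also fell, with 13.9, 19.98 and 19.3 CPM in the het 2-cell libraries, against 50.2, 80.9 and 43.8 CPM in the het 1-cell libraries. Apaf1 gave a log2 change of -1.72 (SE 0.38, adjusted p = 0.00378), and -2.33 (SE 0.57, adjusted p = 0.0254) in the reduced fit.
Of 28 antioxidant genes 8 rose and 4 fell (28.6% and 14.3%), shares near those of all genes, and 2 and 1 did in both fits. The 4 were 1 without het 1-cell library 1, het 1-cell library 3 or het 2-cell library 3. Gpx1, a glutathione peroxidase, had 361, 594 and 427 CPM in the het 2-cell libraries, against 25.6, 11.9 and 24.7 CPM in the het 1-cell libraries. Gpx1 gave a log2 change of 4.47 (SE 0.62, adjusted p = 0.000276), and 5.13 (SE 1.01, adjusted p = 0.0104) in the reduced fit. Prdx4, a peroxiredoxin of the endoplasmic reticulum, had 216, 221 and 259 CPM in the het 2-cell libraries, against 0.354, 0.358 and 1.84 CPM in the het 1-cell libraries. Txnrd1, thioredoxin reductase, had 9.44, 5.41 and 7.93 CPM in the het 2-cell libraries, against 56.9, 44.1 and 56.5 CPM in the het 1-cell libraries. Txnrd1 gave a log2 change of -2.79 (SE 0.47, adjusted p = 0.000711), and -2.68 (SE 0.64, adjusted p = 0.0244) in the reduced fit.

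Stored maternal RNA, counted as poly(A) RNA, was lower at 2 cells across several gene groups. Tail length was not measured, so here and in the other lists it cannot be told apart from RNA amount. Of 40 maternal-effect and oocyte regulators 26 fell and 2 rose with all libraries, beside 13.9% and 22.8% of all genes, and 19 fell and none rose in both fits (median log2 -2.01, and -2.77 in the reduced fit). Nlrp9b, an NLR-family protein of the egg, had 8.70, 8.53 and 5.61 CPM in the het 2-cell libraries, against 140.1, 177 and 138 CPM in the het 1-cell libraries. Nlrp9b gave a log2 change of -4.32 (SE 0.57, adjusted p = 0.000241), and -4.68 (SE 0.73, adjusted p = 0.00484) in the reduced fit. Dnmt1, the maintenance DNA methyltransferase, had 6.63, 13.1 and 5.71 CPM in the het 2-cell libraries, against 115, 197 and 129.7 CPM in the het 1-cell libraries. Dnmt1 gave a log2 change of -4.11 (SE 0.59, adjusted p = 0.000315), and -4.67 (SE 0.76, adjusted p = 0.00522) in the reduced fit. Its partner Uhrf1 had 21.8, 12.7 and 16.9 CPM in the het 2-cell libraries, against 93.01, 115 and 81.8 CPM in the het 1-cell libraries. Uhrf1 gave a log2 change of -2.49 (SE 0.46, adjusted p = 0.00122), and -2.89 (SE 0.65, adjusted p = 0.0186) in the reduced fit. Zfp57, which guards imprints, had 34.7, 31.4 and 32.3 CPM in the het 2-cell libraries, against 182, 682 and 153 CPM in the het 1-cell libraries. Zfp57 gave a log2 change of -3.37 (SE 0.60, adjusted p = 0.00101), and -4.52 (SE 0.59, adjusted p = 0.00302) in the reduced fit. For each of these genes every het 2-cell library lay below every het 1-cell library.
The change of abundant maternal genes depended on which het 1-cell libraries entered. H1foo, the oocyte linker histone, had 105, 51.2 and 34.9 CPM in the het 2-cell libraries, against 195, 7746 and 143 CPM in the het 1-cell libraries. Library 2 was the highest of the het 1-cell libraries, and WT 1-cell embryos had 6403 ± 611 CPM. Its log2 change was -5.40 (SE 1.37, adjusted p = 0.00745) with all libraries, -7.08 (SE 0.90, adjusted p = 0.00302) in the reduced fit, and -1.4 and not past the test without library 2. Dppa3, which shields the maternal genome from demethylation, had 2869, 10620.5 and 9375 CPM in the het 2-cell libraries, against 139.8, 9453 and 105 CPM in the het 1-cell libraries and did not pass in either fit (adjusted p = 0.455, and 0.783).

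Of 29 oocyte-secreted and zona genes 1 rose and 12 fell with all libraries (3.45% and 41.4%), and 9 fell and none rose in both fits. The median log2 change was -1.17, and -2.08 in the reduced fit, and 0.07 without het 1-cell library 2, where 10 rose and 8 fell. The list summed to 39822, 35727 and 29965 CPM in het 2-cell libraries, against 4348, 57032 and 3431 CPM in het 1-cell libraries. By this sum het 1-cell libraries 1 and 3, those with the ceiling, lay below every het 2-cell library. Plat, tissue plasminogen activator, had 12.9, 14.8 and 7.43 CPM in the het 2-cell libraries, against 209, 215 and 138 CPM in the het 1-cell libraries. Plat gave a log2 change of -4.00 (SE 0.46, adjusted p = 0.000172), and -4.34 (SE 0.56, adjusted p = 0.00302) in the reduced fit. Zp1, a protein of the egg coat, had 46.3, 37.1 and 23.95 CPM in the het 2-cell libraries, against 114, 115 and 90.7 CPM in the het 1-cell libraries. Zp1 gave a log2 change of -1.57 (SE 0.33, adjusted p = 0.00267), and -1.83 (SE 0.50, adjusted p = 0.0404) in the reduced fit. Izumo1r, the sperm receptor JUNO, had 5.31, 8.57 and 5.91 CPM in the het 2-cell libraries, against 51.9, 49.4 and 52.2 CPM in the het 1-cell libraries. Izumo1r gave a log2 change of -2.95 (SE 0.61, adjusted p = 0.00232), and -3.04 (SE 0.83, adjusted p = 0.0404) in the reduced fit. The 4 Oas1 genes of the list, oocyte-expressed relatives of an antiviral synthetase, had log2 changes of -4.90 to -3.01, and -6.18 to -3.86 in the reduced fit. Cd9, the egg surface protein needed for sperm fusion, was the member that rose, with 131, 316 and 279.6 CPM in the het 2-cell libraries, against 35.01, 49.5 and 41.5 CPM in the het 1-cell libraries (adjusted p = 0.00315, and 0.134 in the reduced fit).

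The 12 lowest fitted changes included genes of DNA repair and of lipid and glutathione metabolism. Zc4h2, a zinc-finger gene on the X chromosome, had 0 counts in each het 2-cell library, against 29.5, 30.5 and 28.5 CPM in the het 1-cell libraries. Zc4h2 was at least 641-fold lower (adjusted p = 0.000355, and 0.00548 in the reduced fit). Slf1, of the SMC5-SMC6 DNA repair pathway, had 0.688, 1.18 and 2.07 CPM in the het 2-cell libraries, against 100.3, 128 and 90.6 CPM in the het 1-cell libraries. Slf1 gave a log2 change of -6.33 (SE 0.78, adjusted p = 0.000184), and -6.73 (SE 0.97, adjusted p = 0.00384) in the reduced fit. Elovl5, a fatty-acid elongase, had 1.47, 1.07 and 1.82 CPM in the het 2-cell libraries, against 104, 85.02 and 80.7 CPM in the het 1-cell libraries. Elovl5 gave a log2 change of -5.95 (SE 0.83, adjusted p = 0.000276), and -6.00 (SE 0.95, adjusted p = 0.00484) in the reduced fit. Chac2, a glutathione-degrading enzyme, had 1.72, 0.237 and 0.960 CPM in the het 2-cell libraries, against 60.6, 47.1 and 51.5 CPM in the het 1-cell libraries. Chac2 gave a log2 change of -5.77 (SE 0.73, adjusted p = 0.000187), and -5.75 (SE 0.91, adjusted p = 0.00494) in the reduced fit. Pms1, a mismatch-repair protein, had 0.590, 1.38 and 0.960 CPM in the het 2-cell libraries, against 68.9, 66.7 and 69.04 CPM in the het 1-cell libraries. Pms1 gave a log2 change of -6.11 (SE 1.12, adjusted p = 0.00117), and -6.21 (SE 1.36, adjusted p = 0.0169) in the reduced fit. Sgo2b, a shugoshin relative on chromosome 8, had 0.246, 0 and 0.0505 CPM in the het 2-cell libraries, against 31.7, 19.1 and 29.5 CPM in the het 1-cell libraries, and Cyp19a1, the aromatase of granulosa cells, had 0.197, 0 and 0 CPM in the het 2-cell libraries, against 42.1, 53.6 and 55.2 CPM in the het 1-cell libraries. The other 5 were Gpatch1, Npffr2, Lekr1, Cd300c and C87487, with log2 changes of -7.22 to -5.77.

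Of 63 factors of mRNA decay and storage 11 rose and 20 fell (17.5% and 31.7%), 2 and 12 in both fits (median log2 -0.46, and -0.35). Dcp1a, a decapping cofactor, had 31.3, 35.9 and 20.8 CPM in the het 2-cell libraries, against 237, 282 and 228 CPM in the het 1-cell libraries. Dcp1a gave a log2 change of -3.08 (SE 0.48, adjusted p = 0.000454), and -3.41 (SE 0.64, adjusted p = 0.00837) in the reduced fit. Cpeb1, the regulator of cytoplasmic polyadenylation, had 11.5, 11.6 and 6.21 CPM in the het 2-cell libraries, against 54.5, 51.1 and 73.04 CPM in the het 1-cell libraries. Cpeb1 gave a log2 change of -2.60 (SE 0.41, adjusted p = 0.000539), and -2.53 (SE 0.60, adjusted p = 0.0236) in the reduced fit. Of 2 related poly(A)-binding proteins, the nuclear Pabpn1 had 609, 1068 and 1103 CPM in the het 2-cell libraries, against 16.4, 13.3 and 14.9 CPM in the het 1-cell libraries. Pabpn1 gave a log2 change of 5.96 (SE 0.75, adjusted p = 0.000186), and 5.98 (SE 1.22, adjusted p = 0.0121) in the reduced fit. Pabpn1l, the oocyte form that helps degrade maternal mRNA, had 8.35, 5.57 and 0.859 CPM in the het 2-cell libraries, against 121, 263 and 86.98 CPM in the het 1-cell libraries. Pabpn1l gave a log2 change of -4.99 (SE 0.72, adjusted p = 0.000294), and -5.89 (SE 0.79, adjusted p = 0.00384) in the reduced fit. Pabpn1 was higher and Pabpn1l lower in every het 2-cell library than in any het 1-cell library.

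Of 61 meiotic and mitotic cell-cycle genes 9 rose and 19 fell (14.8% and 31.1%), 4 and 11 in both fits. Mos fell (log2 -5.56, SE 0.75, adjusted p = 0.000248, and -5.97, SE 0.89, adjusted p = 0.00417 in the reduced fit). Fbxo43, the inhibitor EMI2 of metaphase exit, had 16.6, 4.66 and 6.82 CPM in the het 2-cell libraries, against 137, 122 and 126 CPM in the het 1-cell libraries. Fbxo43 gave a log2 change of -3.78 (SE 0.58, adjusted p = 0.000416), and -3.85 (SE 0.73, adjusted p = 0.00892) in the reduced fit. Ccne1, cyclin E1 of the G1 to S transition, rose, with 313, 376 and 453 CPM in the het 2-cell libraries, against 31.4, 28.2 and 43.7 CPM in the het 1-cell libraries. Ccne1 gave a log2 change of 3.47 (SE 0.55, adjusted p = 0.000553), and 3.62 (SE 0.88, adjusted p = 0.0261) in the reduced fit. Cdc25a, the phosphatase that activates its kinase, fell, with 4.57, 5.73 and 10.4 CPM in the het 2-cell libraries, against 34.4, 66.2 and 57.1 CPM in the het 1-cell libraries. Cdc25a gave a log2 change of -2.93 (SE 0.48, adjusted p = 0.000652), and -3.40 (SE 0.65, adjusted p = 0.00892) in the reduced fit. The median of the list was near 0 (-0.26) and positive without het 1-cell library 2 (0.02) and with genes above 100 CPM left out (0.13).
Of 40 replication genes 5 rose and 12 fell (12.5% and 30%), 1 and 7 in both fits. The 5 were 2 without het 1-cell library 1 and 3 without het 1-cell library 2, het 1-cell library 3, het 2-cell library 2 or het 2-cell library 3. Mcm4, of the replicative helicase, had 26.1, 8.73 and 12.3 CPM in the het 2-cell libraries, against 141, 134 and 109 CPM in the het 1-cell libraries. Mcm4 gave a log2 change of -3.02 (SE 0.58, adjusted p = 0.00156), and -3.24 (SE 0.77, adjusted p = 0.0234) in the reduced fit. Prim2, the large primase subunit, had 17.3, 25.9 and 34.2 CPM in the het 2-cell libraries, against 125, 152 and 98.3 CPM in the het 1-cell libraries. Prim2 gave a log2 change of -2.28 (SE 0.35, adjusted p = 0.000468), and -2.69 (SE 0.51, adjusted p = 0.00843) in the reduced fit.

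Of 48 DNA methylation and histone modifiers 10 rose and 15 fell (20.8% and 31.2%), 4 and 9 in both fits. Without het 1-cell library 3, 6 rose. Tet3, the oxidase of 5-methylcytosine in the zygote, had 34.8, 16.2 and 44.8 CPM in the het 2-cell libraries, against 278, 319 and 255 CPM in the het 1-cell libraries. Tet3 gave a log2 change of -3.15 (SE 0.57, adjusted p = 0.00113), and -3.46 (SE 0.74, adjusted p = 0.0152) in the reduced fit. Ezh2, the H3K27 methyltransferase, had 56.3, 29.5 and 41.1 CPM in the het 2-cell libraries, against 216, 378 and 188 CPM in the het 1-cell libraries. Ezh2 gave a log2 change of -2.63 (SE 0.46, adjusted p = 0.00095), and -3.31 (SE 0.59, adjusted p = 0.00679) in the reduced fit. Kdm4c, an H3K9 demethylase, went the other way, with 27.8, 37.1 and 40.1 CPM in the het 2-cell libraries, against 0, 0 and 0.0634 CPM in the het 1-cell libraries. Kdm4c gave a ratio of 1340, 95% counting interval 241 to 53000 (adjusted p = 0.000271, and 0.0203 in the reduced fit), on 1 count in the het 1-cell libraries. Among 20 histone genes, H2afz, the variant H2A.Z, had 1364, 2599 and 3153 CPM in the het 2-cell libraries, against 62.9, 106 and 51.9 CPM in the het 1-cell libraries. H2afz gave a log2 change of 5.01 (SE 0.64, adjusted p = 0.000196), and 4.35 (SE 0.85, adjusted p = 0.00994) in the reduced fit. Hist1h2aa, a germ-cell variant, had 0.442, 0.316 and 0.556 CPM in the het 2-cell libraries, against 19.8, 28.3 and 18.3 CPM in the het 1-cell libraries. Hist1h2aa gave a log2 change of -5.64 (SE 1.17, adjusted p = 0.00243), and -6.14 (SE 1.42, adjusted p = 0.0208) in the reduced fit. Replication-dependent histone mRNAs lack a poly(A) tail, so a poly(A) library counts few of them.

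**Figure D3:**
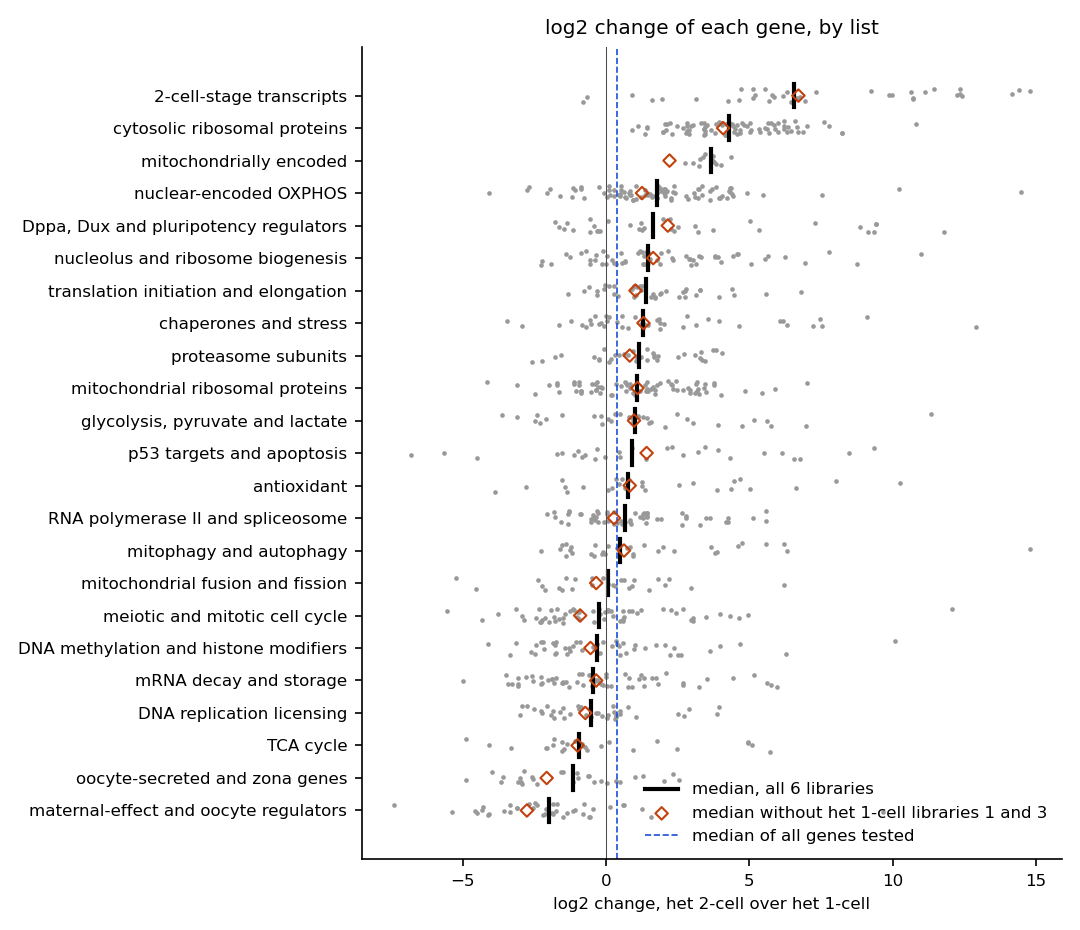
Log2 change (het 2-cell over het 1-cell) of every tested gene in 23 lists, with the median over all 6 libraries as a bar, the median of the reduced fit as a diamond, and the median of all genes tested as a dashed line. 2-cell-stage transcripts (median 6.56) and cytosolic ribosomal proteins (4.27) lie highest, and maternal-effect and oocyte regulators (-2.01) lowest.

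**Figure D4:**
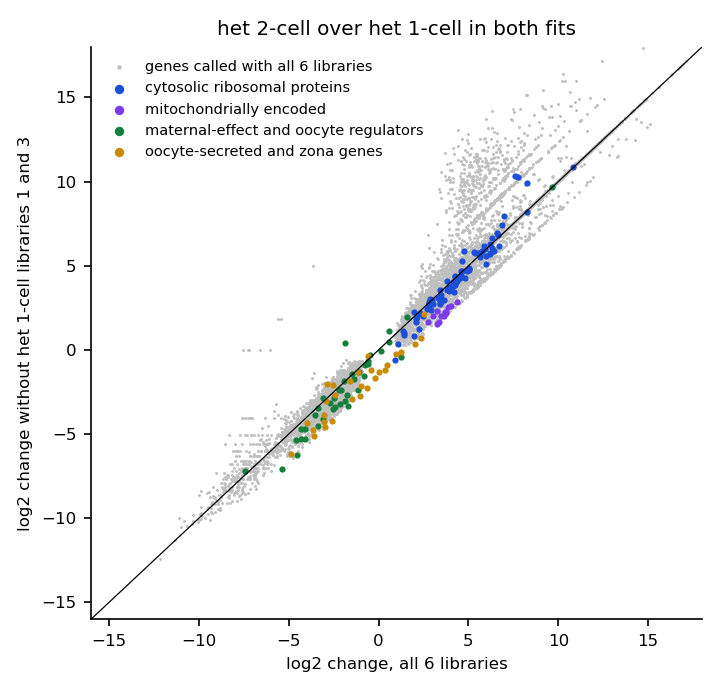
Log2 change with all 6 libraries (horizontal axis) against the reduced fit (vertical axis) for genes called with all libraries, with every tested member of 4 lists coloured, whether called or not. The medians with all libraries and in the reduced fit were 4.27 and 4.08 for ribosomal protein genes, 3.66 and 2.21 for mitochondrially encoded genes, and -1.17 and -2.08 for oocyte-secreted genes.

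The same step in WT embryos was set beside it. In WT embryos 10981 genes differed between 2 cells and 1 cell (46.4%), 6735 higher (28.5%) and 4246 lower (17.9%). Of the genes that rose in het embryos 4901 also rose in WT, 90.8% of the het and 72.8% of the WT list. Of those that fell 2655 also fell in WT, 80.6% of the het and 62.5% of the WT list. 1 gene called in both went in opposite directions. Het 1-cell libraries 1 and 3 had a ceiling and WT 1-cell libraries had none, so numbers of calls were not compared between genotypes. Median log2 changes were 6.56 in het and 6.89 in WT for 2-cell-stage transcripts and 4.27 in het and 4.77 in WT for ribosomal proteins. Other medians lay further apart, among them -2.01 in het and -2.96 in WT for maternal-effect regulators and -1.17 and -2.77 for oocyte-secreted genes. Further ones were 3.66 and 1.71 for mitochondrially encoded genes, 0.41 and -0.53 for Obox genes, 0.06 and -0.63 for fusion and fission genes, and 1.77 and 0.70 for later preimplantation markers. In the reduced fit the het medians were -2.77, -2.08, 2.21, -1.15, -0.35 and 2.19, in the same order. Such gaps were not limited to these lists. Medians in het and WT were 8.17 and 12.19 for blood, 4.74 and 7.06 for oviduct and 0.76 and 2.16 for granulosa markers. For p53 targets and apoptosis they were 0.89 and 1.61. Medians of the remaining lists are not given here.

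The difference of the het and WT changes was tested as an interaction. With all libraries 1 gene passed (0.00423%), 1049 having an unadjusted p under 0.05, and in the reduced fit none of 28070 passed (0.0%), 309 having an unadjusted p under 0.05. DESeq2 called 73 genes with all libraries. Without het 1-cell library 2, which leaves the libraries with the ceiling as the het 1-cell group, edgeR called 143, of which 141 were positive. The gene that passed was Btg1-ps1, a copy of the anti-proliferative gene Btg1 on the X chromosome, with 1.47, 2.53 and 2.37 CPM in the het 2-cell libraries, against 32.7, 16.8 and 20.5 CPM in the het 1-cell libraries. WT 2-cell libraries had 0 counts in each and WT 1-cell libraries had 32.5, 30.02 and 30.3 CPM (adjusted p = 0.0105, and 0.674 in the reduced fit). Its sequence resembles Btg1, so reads may be shared between them.

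**Figure D5:**
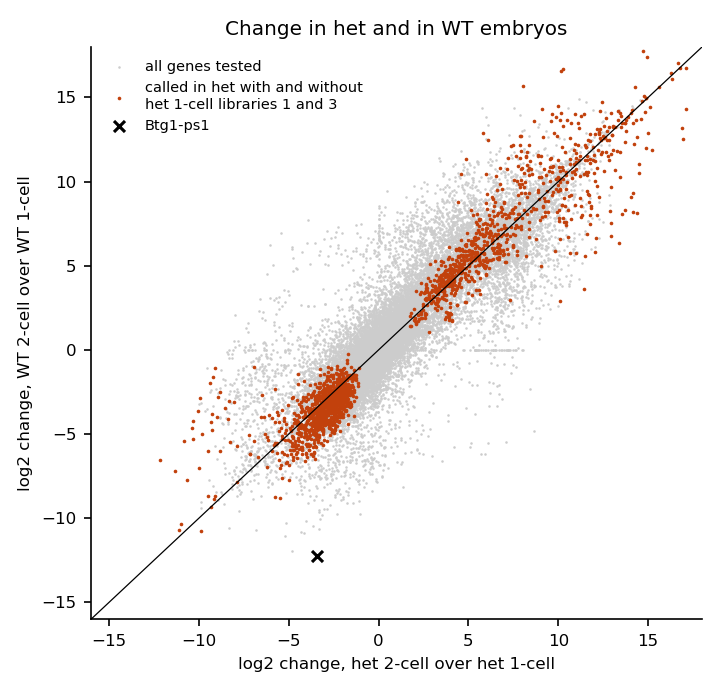
Log2 change of every gene tested in het embryos (horizontal axis) and in WT embryos (vertical axis), with genes called in het embryos in both fits in orange and Btg1-ps1 as a cross. Points run along the diagonal (Pearson r = 0.877 across genes, which are not independent replicates), and Btg1-ps1 was the only gene whose 2 changes differed past the threshold.

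The next smallest p-values did not pass the adjustment in edgeR with all libraries. Prl8a2 passed with DESeq2 (adjusted p = 0.0255), and Mfap2, Gstm5 and Ncbp1 passed in edgeR without het 1-cell library 2 (adjusted p = 0.0249, 0.00961 and 0.0451). Among positive differences, Prl8a2, a prolactin-family gene of the placenta, had 131, 106 and 72.9 CPM in the het 2-cell libraries, against 73.6, 149 and 59.3 CPM in the het 1-cell libraries, and 25.2 ± 9.70 CPM and 169 ± 7.88 CPM in WT 2-cell and 1-cell embryos (difference 2.88, SE 0.74, unadjusted p = 0.00131, adjusted p = 1, and 2.15, SE 0.91, unadjusted p = 0.0322 in the reduced fit). Mfap2 and Gstm5 had differences of 2.76 and 2.83 (unadjusted p = 0.00174 and 0.00228), and 1.86 and 1.75 in the reduced fit. Among negative ones, Rrp9, a small-subunit rRNA processing factor, had 48.4, 29.9 and 56.4 CPM in the het 2-cell libraries, against 1.5, 1.16 and 2.79 CPM in the het 1-cell libraries. WT embryos had 65.5 ± 14.2 CPM at 2 cells and 0.0442 ± 0.0384 CPM at 1 cell (adjusted p = 0.507). Ncbp1, the nuclear cap-binding subunit, and Prkcz, an atypical protein kinase C, had differences of -4.47 and -5.65 (unadjusted p = 0.000723 and 0.000819). These 3 were near 0 in WT 1-cell embryos and at 0.269 to 2.79 CPM in het 1-cell embryos, and 2-cell levels overlapped between genotypes.

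Embryos that stayed at 1 cell through the same 24 hours of culture did not hold 1 level. Zscan4f had 9.14, 1445 and 909 CPM in the 3 het arrested libraries, Obox6 3.77, 203 and 144 CPM, Map1lc3b 127, 975 and 518 CPM and H1foo 2666, 1713 and 339 CPM. In the first 3 of these genes arrested library 1 was the lowest, and libraries 2 and 3 lay above every het 1-cell library.

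Some markers of other cells were present in het 2-cell embryos. Of 10 blood markers 4 were tested and all 4 rose, 2 in both fits: Hba-a1, an alpha-globin gene, had 87.3, 137 and 154 CPM in the het 2-cell libraries, against 2.21, 0 and 0 CPM in the het 1-cell libraries, and Hba-a2, its near-identical copy, had 88.2, 143 and 155 CPM in the het 2-cell libraries, against 1.68, 0 and 0 CPM in the het 1-cell libraries. The blood markers not tested did not pass the expression filter, and 3 of them had 0 counts in all 6 libraries. The summed level of the blood list was 234, 309 and 341 CPM in het 2-cell libraries, against 3.98, 0.448 and 0.951 CPM in het 1-cell libraries. WT 2-cell embryos had the 2 globin genes too, at 223 ± 45.7 CPM and 218 ± 50.5 CPM. The other blood markers that rose were Cd74, of antigen presentation, and Lyz2, a lysozyme of myeloid cells. Cd74 was at least 455-fold higher (adjusted p = 0.0042, and 0.0935 in the reduced fit). Lyz2 was at least 28.2-fold higher (adjusted p = 0.0206, and 0.23 in the reduced fit).
Of 24 granulosa and cumulus markers 16 were tested, and 4 rose and 1 fell with all libraries (25% and 6.25%), 2 and 1 in both fits. The 4 that rose were Amhr2, Gja1, Tnfaip6 and Krt18. Amhr2, the receptor of anti-Müllerian hormone, had 14.2, 30.2 and 30.01 CPM in the het 2-cell libraries, against 0 counts in each het 1-cell library. Amhr2 was at least 321-fold higher (adjusted p = 0.00281, and 0.0757 in the reduced fit). Gja1, connexin 43, had 7.03, 20.97 and 41.8 CPM in the het 2-cell libraries, against 0 counts in each het 1-cell library. Gja1 was at least 292-fold higher (adjusted p = 0.000723, and 0.0369 in the reduced fit). Tnfaip6, a matrix protein of the expanding cumulus, had 17.6, 2.80 and 11.1 CPM in the het 2-cell libraries, against 0 counts in each het 1-cell library. Tnfaip6 was at least 126-fold higher (adjusted p = 0.0022, and 0.0655 in the reduced fit). Krt18, a keratin, had 38.1, 5.49 and 6.16 CPM in the het 2-cell libraries, against 0.177, 0 and 0 CPM in the het 1-cell libraries. Krt18 gave a ratio of 303, 95% counting interval 83.7 to 2500 (adjusted p = 0.000717, and 0.0227 in the reduced fit). WT 2-cell embryos had 23.3 ± 5.57 CPM of Amhr2, 31.5 ± 8.88 CPM of Gja1, 13.6 ± 0.707 CPM of Tnfaip6 and 9.46 ± 2.04 CPM of Krt18. Cyp19a1 was the marker that fell. Fshr, the receptor of follicle-stimulating hormone, had 0 counts in each het 2-cell library, against 1.24, 0 and 1.65 CPM in the het 1-cell libraries, and Foxl2, a granulosa transcription factor, had 1.08, 0.829 and 0 CPM in the het 2-cell libraries, against 0 counts in each het 1-cell library. Neither passed. The summed level of the list was 100.2, 65.7 and 97.1 CPM in het 2-cell libraries, against 61.1, 67.4 and 82.7 CPM in het 1-cell libraries.
Of 8 tested oviduct markers Epcam, Krt18 and Upk1a rose, and 5 rose with no expression filter and 6 with DESeq2. Epcam, Krt18 and Upk1a are also known from embryos, and the list summed to 359, 437 and 579 CPM in het 2-cell libraries, against 112, 164 and 98.5 CPM in het 1-cell libraries. Of 6 tested sperm markers none rose with all libraries and 1 rose with DESeq2, the list summed to 11.9, 22.2 and 30.5 CPM in het 2-cell libraries, against 15.6, 12.2 and 14.6 CPM in het 1-cell libraries, and Akap4, of the sperm tail, fell, with 0 counts in each het 2-cell library, against 5.39, 3.23 and 3.80 CPM in the het 1-cell libraries. Of 12 tested markers of later preimplantation stages 4 rose and 2 fell, 2 and 1 in both fits. The shares called higher and lower with all libraries were 33.3% and 16.7% for the 12 later markers. They were 37.5% and 0% for the 8 oviduct markers and 0% and 16.7% for the 6 sperm markers. Over all genes they were 22.8% and 13.9%, and on lists this small a single gene moves a share by several percent. Whether other cells had a part in any result was not tested.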

How the data were processed

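Poly(A) RNA of 15 embryo libraries in 5 groups of 3 was analysed as the raw read counts per gene that the authors deposited for 56196 genes. Per the submitters' processing notes, the mm10 build, Trim Galore 0.6.4, HISAT2 2.1.0 and featureCounts 1.6.5 were used. No source used here gives the annotation release, strand setting, treatment of shared reads or any removal of duplicates. Per the labels, no strand-marking step and no molecular identifier is named. Therefore floors and counting intervals cover counting error only, and overlapping genes and close copies have uncertain counts. The deposited table of germinal vesicle oocytes was not used here. Of the identifiers 54673 matched GENCODE M21 with their version, which gave coordinates and exon lengths, and 27 of 28 symbols turned into dates were restored. Every column had a sample.

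All 15 libraries entered 1 model with 5 groups, after filterByExpr and TMM scaling, and edgeR 4.0.16 (R 4.3.3) gave quasi-likelihood F tests, with Benjamini-Hochberg adjustment over all genes tested and a threshold of 0.05. The standard error (SE) is the size of the log2 change divided by the square root of F. The script was tested on simulated data. Totals ran from 5597333 to 40377212 counts. The members and the gene lists were chosen with earlier results of these data known, and lists are described by counts and medians, with no test. Named genes are Eif4enif1, the 12 highest and 12 lowest fitted log2 changes (which no bound ranks for a group at 0 counts) called in both fits with a mean of at least 10 CPM and no overlap, up to 6 members of each list, and the smallest p-values of the interaction. Other genes were named after their values were seen, as counts of 5 or fewer, markers or members of lists. Where a group had 0 counts, 3 counts summed over its libraries served as floor, so the fold is a lower bound, while ratios on 1 to 3 counts have an exact 95% counting interval. DESeq2 1.42.0, other scalings and filters, and left-out libraries were tried as alternatives. Replicate numbers did not pair the samples.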

Additional observations from a re-analysis of the deposited data

Results flagged for a closer look

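Btg1-ps1 was the only gene whose change between 1 cell and 2 cells differed between het and WT embryos past the threshold (difference of log2 changes 8.79, SE 0.97, adjusted p = 0.0105, edgeR). It had 1.47, 2.53 and 2.37 CPM in het 2-cell libraries and 32.7, 16.8 and 20.5 CPM in het 1-cell libraries, all 3 het 2-cell libraries being lower, and 0 counts in each WT 2-cell library and 32.5, 30.02 and 30.3 CPM in WT 1-cell libraries. Because WT 2-cell embryos were at 0, the fitted difference depends on the prior count and is no bound. The fitted difference was 9.29 without het 1-cell libraries 1 and 3, 8.83 without het 1-cell library 3 and 8.89 with the replicate block, as large as with all libraries, but it did not pass in any of them (adjusted p = 0.674, 0.0685 and 0.0589).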

How the results depend on the processing

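Log2 changes of the genes named by rule kept their sign under the alternatives run. More genes were higher than lower with all libraries, and more were lower than higher without het 1-cell libraries 1 and 3. Counts and medians of some gene lists turned too. Of 8689 genes called with all libraries, 8 had the opposite sign without het 1-cell libraries 1 and 3. In het embryos the number of genes called was 8693 with all libraries, 2017 without het 1-cell libraries 1 and 3 (855 higher and 1162 lower), and 2402 when het 2-cell library 1 was left out with them, which was chosen after seeing the data (1018 higher and 1384 lower). Without 1 library at a time it was 5861 to 8250, with 3726 to 4975 higher and 2014 to 3275 lower. In WT embryos it was 7971 to 9023 of 10981, with 4669 to 5565 higher and 2929 to 3458 lower. The difference of het and WT changes had 1 gene with all libraries, 0 to 143 without 1 library at a time, 0 without het 1-cell libraries 1 and 3, 0 without these and het 2-cell library 1, 3 with only the groups compared and 73 with DESeq2. The 143 came without het 1-cell library 2, and 0 without het 1-cell library 3. The cause was not tested.

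With only the groups compared in the model, 9394 of 19365 genes tested were called in het and 13424 of 19752 in WT embryos. DESeq2 called 10832 of 23656 in het and 12738 of 23656 in WT embryos. RLE scaling moved the median log2 change of all genes in het embryos from 0.36 to 0.53 and left 5932 genes higher and 2922 lower. Leaving out genes above 100 CPM left 5099 higher and 2539 lower, and no expression filter left 5453 higher and 2474 lower, so that 62.1% of calls were higher with all libraries, 67.0% with RLE scaling, 68.8% with no filter and 42.4% without het 1-cell libraries 1 and 3.

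Replicate numbers did not pair the samples: deviations of same-numbered libraries from their group means correlated at 0.015, 0.023 and 0.012 in het and -0.011, -0.002 and -0.025 in WT embryos. With the replicate number as a block 7638 genes were called in het embryos, 4657 higher and 2981 lower, and 0 in the difference.

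Over all genes 1937 of 8689 calls held without het 1-cell libraries 1 and 3, 5855 of 8692 without het 1-cell library 2 and 8531 of 8693 with DESeq2. Most named genes were chosen as called with all libraries and without het 1-cell libraries 1 and 3, so a count of held calls among them shows nothing. Gpatch1, Cd300c, Izumo1r, Mcm10, Eif2b5, Oma1, Mrps5 and Id2 lost their call when het 2-cell library 1 was left out as well. Depth limits calls below the floor of 3 counts over a group, which is 0.0458 CPM in het 2-cell and 0.0784 CPM in het 1-cell embryos.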
